A study of Mus musculus with 42 samples.

Results

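The 7 genes described here encode or control the acid secretion machinery of the parietal cell: Atp4a, Atp4b, Slc26a7, Slc4a2, Clic6, Esrrg and Esrrb. They were chosen by name, not by a measured value, out of 22180 genes on the arrays, and each was read from its probe set with 1 gene symbol. All 7 had 1 such probe set. Their levels were followed through 42 arrays of mouse gut epithelium in 15 groups.

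The study profiled stem cell and differentiated cell populations of the stomach outlet and the intestine, to find genes enriched in pyloric stem cells. Adult mice, untreated, not chosen by sex and at least 7 to 8 weeks old, supplied all arrays. 25 arrays came from Lgr5-EGFP-IRES-CreERT2 mice, in which the Lgr5 locus drives green fluorescence and a drug-inducible Cre recombinase, a reporter known to be silent in a share of glands. The pylorus of this line gave 4 Lgr5Hi arrays, of brightly fluorescent cells, 4 Lgr5Lo arrays, of dimly fluorescent cells, and 2 whole arrays, of material that was not sorted. Its small intestine gave 2 Lgr5Hi, 2 Lgr5Lo, 2 crypt and 1 whole array, and its colon gave 3 Lgr5Hi, 3 Lgr5Lo and 2 whole arrays. Lgr5-EGFP-DTR mice, in which the same locus drives fluorescence and a diphtheria toxin receptor, gave 3 Lgr5Hi, 3 Lgr5Lo and 3 fluorescence-negative (Lgr5Neg) arrays of pylorus. Wildtype mice gave pyloric cells stained for the water channel Aqp5 and sorted into 4 Aqp5Pos and 4 Aqp5Neg arrays. IRES, DTR and WT stand for these mice below. For the 9 DTR arrays the label of the mouse model gives the IRES line, whereas the title gives DTR, and the title was followed. The labels call the replicates biological, and whether an array came from 1 animal or a pool is not given in the sources used here. The p-values therefore measure the spread between these samples.

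Parietal cells acidify the stomach with the H+/K+-ATPase, a pump that exchanges cytoplasmic protons for luminal potassium and is built from the catalytic alpha subunit Atp4a and the glycosylated beta subunit Atp4b. Potassium channels return potassium to the lumen, chloride leaves through apical channels and exchangers, and basolateral anion exchange removes the bicarbonate that acid secretion leaves behind. The estrogen-related receptors are orphan nuclear receptors that act on genes of mitochondrial energy production, on which the pump depends. Parietal cells are densest in the body of the stomach and sparser in the pylorus.

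Levels are log2 intensities, and array medians lay between 3.82 and 4.25. No probe set has a detection call, and a level near or below these medians may be background, and a difference from it is read as a lower bound. Lgr5 followed the reporter gates and Aqp5 the antibody gates. The 2 crypt arrays held less Lgr5, 4.93 ± 0.16, than the whole small intestine array at 7.09, and the highest mean of intestinal absorptive cell markers of all groups, 8.31, so their label is in doubt. They are tested against no other group here, but they enter the residual spread of the IRES fits and the spans of group means. A colon array also went against its label. Whole colon array 1 held the stomach genes Gkn1 at 13.12, Muc5ac at 12.50 and Cblif at 11.21, and the intestinal genes Cdx2 at 4.43, Slc26a3 at 2.84 and Car1 at 2.50. In whole colon array 2 the intestinal genes stood at 8.04, 10.16 and 11.61. Whole colon array 1 lacked the pyloric pattern as well, with Gast, the gastrin gene, at 5.13 (lowest pyloric array 6.23) and Aqp5 at 5.20 (lowest pyloric array 6.95). It was the highest of all 42 arrays for 6 of the 7 genes. It enters the residual spread of all IRES comparisons, so calls and errors of the 7 genes in these are also given without it where they moved.

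Atp4a (probe set 17476497) lies on chromosome 7 at chr7:30712209-30725534 of GRCm38.p6. Its promoter, from 250 bases before to 50 bases after the gene start in RefSeq's GRCm38.p6 annotation (plus strand, chr7:30711959-30712258), is printed because the pump genes carried the largest differences between groups. The capitals mark the GATA core, the central letters of the sites of GATA factors, on either strand. Binding was not measured.

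Atp4a promoter: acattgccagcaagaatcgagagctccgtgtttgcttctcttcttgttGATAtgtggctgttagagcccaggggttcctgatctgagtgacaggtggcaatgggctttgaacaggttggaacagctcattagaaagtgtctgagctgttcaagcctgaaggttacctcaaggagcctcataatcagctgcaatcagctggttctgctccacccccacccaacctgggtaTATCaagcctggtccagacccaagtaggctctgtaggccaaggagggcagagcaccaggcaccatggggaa

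On the plus strand the GATA core began 202 bases before the gene start. The minus-strand match, printed as TATC, had its first printed letter 21 bases before it. It occurs in 57.9% of 32851 mouse promoters of the same length, so most promoters hold it. The half-site of estrogen-related receptors, AAGGTCA on either strand, occurs in 4.72% of them and in 0 of the 9 promoter entries of Atp4a, Slc4a2, Esrrg and Esrrb. No promoter entry was matched for Atp4b, Slc26a7 and Clic6.

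Across the 15 groups, Atp4a and Atp4b spanned over 7 log2 units of group means, from the intestine to IRES pyloric Lgr5Lo cells. Their spans were 7.02 for Atp4a and 7.24 for Atp4b, against 2.58 for Clic6, 2.37 for Esrrg, 1.12 for Esrrb, 1.00 for Slc4a2 and 0.71 for Slc26a7 with whole colon array 1 left out. The crypt group, whose label is in doubt, was the lowest for Atp4a and Clic6. For Clic6 it averaged 5.74, and the next lowest group, small intestinal Lgr5Lo cells, averaged 6.67, so the Clic6 span rests on the crypt arrays. The highest group means of Atp4a were 11.27 ± 0.30 in IRES pyloric Lgr5Lo cells and 9.78 ± 0.80 in WT Aqp5Neg cells (SD, n = 4 each). Whole pylorus and whole colon, of 2 unlike arrays each, averaged 8.93 and 8.83. IRES pyloric Lgr5Hi cells followed at 8.74 ± 0.74 (n = 4) and DTR Lgr5Lo cells at 8.56 ± 0.33 (n = 3), and the arrays of neighbouring groups in this order overlapped. Below them came a gap. No array of DTR Lgr5Lo cells overlapped with those of WT Aqp5Pos cells (6.49 ± 1.28, n = 4), DTR Lgr5Hi cells (5.97 ± 0.81, n = 3) or DTR Lgr5Neg cells (5.14 ± 0.43, n = 3). Sorted, crypt and whole small intestine and sorted colon had group means between 4.24 and 4.88, a little above the array medians. Within each line, the pyloric Lgr5Hi and Aqp5Pos gates carried less pump transcript than the Lgr5Lo and Aqp5Neg gates. The DTR Lgr5Neg gate had the least Lgr5 and the least Atp4a of the pyloric groups.

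**Figure D1:**
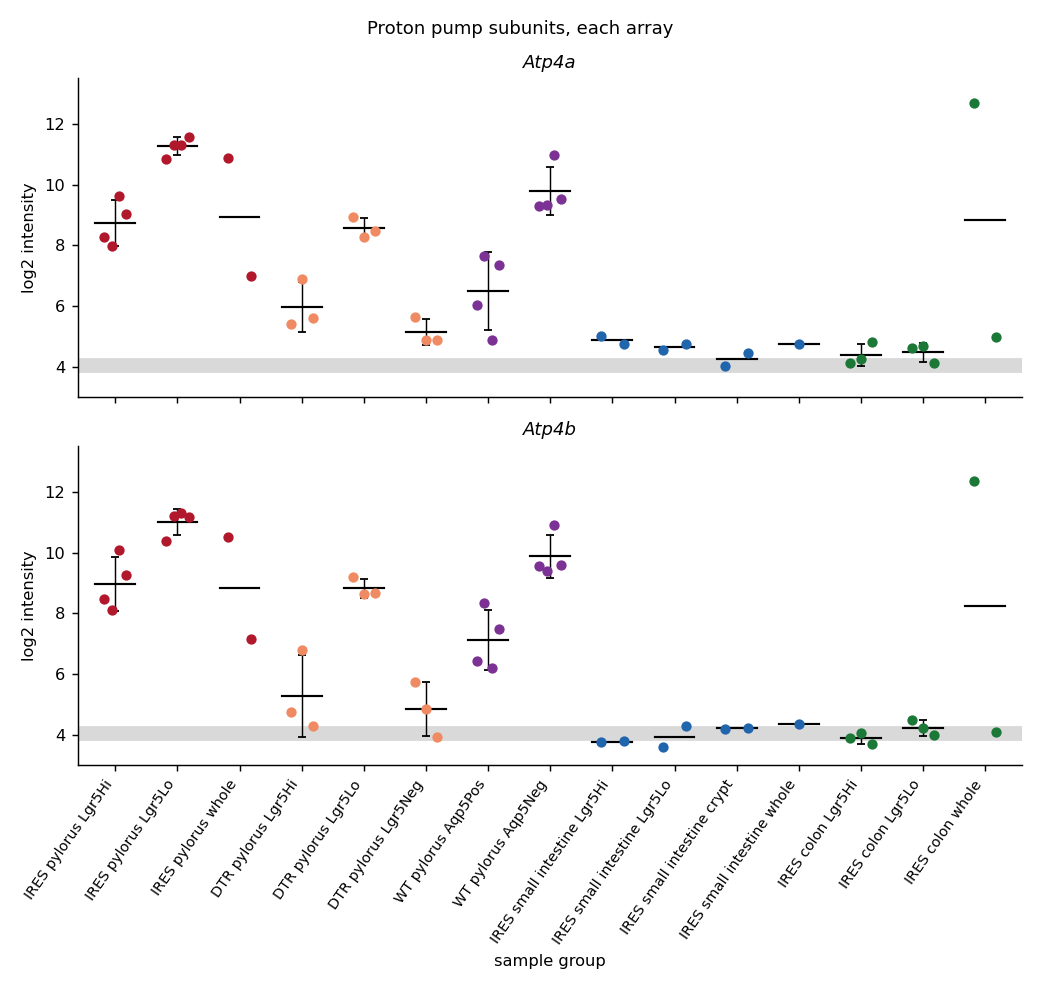
Log2 intensity (y axis) of Atp4a and Atp4b in each array (points) of the 15 groups (x axis), with the group mean as a line, the SD as a bar for groups of 3 or more arrays, and the range of array medians as a grey band. In the pylorus, Lgr5Lo and Aqp5Neg groups stand above the Lgr5Hi and Aqp5Pos groups of the same line, and 1 whole colon array stands at 12.69 and 12.37.

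In the DTR pylorus both pump subunits were highest in the dim gate and low on either side of it. Atp4a stood at 5.41, 6.90 and 5.61 in Lgr5Hi cells, at 8.93, 8.29 and 8.47 in Lgr5Lo cells and at 5.64, 4.89 and 4.89 in Lgr5Neg cells. Atp4b (probe set 17507595, chr8:13386209-13396778), the subunit that carries the pump to the membrane, stood at 4.73, 6.79 and 4.27, at 9.18, 8.62 and 8.68, and at 5.74, 4.85 and 3.94 in the same gates. Every Lgr5Lo array was above every other DTR array for both genes, while Lgr5Hi and Lgr5Neg arrays overlapped. In Lgr5Hi cells Atp4a fell by 2.59 ± 0.34 (SE) relative to Lgr5Lo cells, 6.0-fold on the intensity scale, and Atp4b fell by at least 3.56 ± 0.55, 11.8-fold, since its Lgr5Hi level lay near the array medians (limma adjusted p = 0.00147 and 0.00306). These were the 2 of 7 genes called in this comparison, at an adjusted p under 0.05, both lower, where 2.94% of all genes were called lower. In Lgr5Lo cells Atp4a was higher than in Lgr5Neg cells by at least 3.42 ± 0.34 and Atp4b by at least 3.98 ± 0.55 (adjusted p = 0.000309 and 0.002), 2 of 7 genes called higher against 1.57% of all genes. Between Lgr5Hi and Lgr5Neg cells the differences were 0.83 ± 0.34 for Atp4a and 0.42 ± 0.55 for Atp4b, and neither was called (adjusted p = 0.115 and 0.694). In 1 fit over all 42 arrays, whose spread also holds whole colon array 1, the calls of both genes were lost, at adjusted p = 0.391 and 0.108 for Lgr5Hi against Lgr5Lo and 0.282 and 0.17 for Lgr5Lo against Lgr5Neg. These arrays are bulk samples, in which fewer cells of a type and less RNA per cell cannot be told apart.

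Sorting wildtype pylorus by Aqp5 protein, with no Lgr5 reporter, also separated the pump genes. Atp4a stood at 6.05, 7.66, 4.88 and 7.37 in Aqp5Pos cells, against 9.30, 9.34, 10.97 and 9.53 in Aqp5Neg cells. Atp4b stood at 6.41, 8.33, 6.21 and 7.50 in Aqp5Pos cells, against 9.56, 9.40, 10.92 and 9.59 in Aqp5Neg cells. No Aqp5Pos array reached an Aqp5Neg array for either gene, and the Aqp5Neg array numbered 3 was far above its group for both. Atp4a fell by 3.30 ± 0.55 in Aqp5Pos cells, 9.82-fold, and Atp4b fell by 2.76 ± 0.45, 6.76-fold (adjusted p = 0.00893 and 0.00839). They were 2 of 7 genes called, both lower, where 2.25% of all genes were called lower. In 1 fit over all 42 arrays the call of Atp4b was lost (adjusted p = 0.0605).

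The IRES pylorus showed the same order of gates at higher levels. Atp4a stood at 8.29, 7.99, 9.64 and 9.04 in Lgr5Hi cells, against 10.85, 11.32, 11.32 and 11.57 in Lgr5Lo cells. Atp4b stood at 8.45, 8.10, 10.09 and 9.25 in Lgr5Hi cells, against 10.36, 11.21, 11.29 and 11.18 in Lgr5Lo cells. The groups did not overlap for either gene, and Lgr5Hi array 3 was the highest of its group for both. Lgr5Hi minus Lgr5Lo was -2.53 ± 0.96 for Atp4a and -2.04 ± 1.01 for Atp4b, and neither passed the test with all IRES arrays in the fit (adjusted p = 0.223 and 0.387). Limma called 0 of the 7 genes here, with 2 at an unadjusted p under 0.05, where 1.49% of all genes were called. Over all genes, 2984 of 22180 had an unadjusted p under 0.05. Without whole colon array 1 the differences were the same, their errors were 0.50 and 0.47, and both genes were called lower (adjusted p = 0.00778 and 0.0227), as was Esrrg, 3 of 7 against 1.42% of all genes. A block on the replicate number, which pairs the arrays of this comparison, also called these 3 (adjusted p = 0.00843 for Atp4a, 0.0186 for Atp4b and 0.0459 for Esrrg). The difference between the DTR and the IRES line was tested itself and was not called for either subunit (DTR minus IRES -0.06 ± 1.29 for Atp4a and -1.52 ± 1.35 for Atp4b, adjusted p = 1 for each), where 0.0766% of all genes were called. These errors hold whole colon array 1. Without it 0 of 7 genes were called and 2 had an unadjusted p under 0.05, as had 1116 of 22180 genes. A test with such wide errors does not show that the gaps of the 2 lines are alike.

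**Figure D2:**
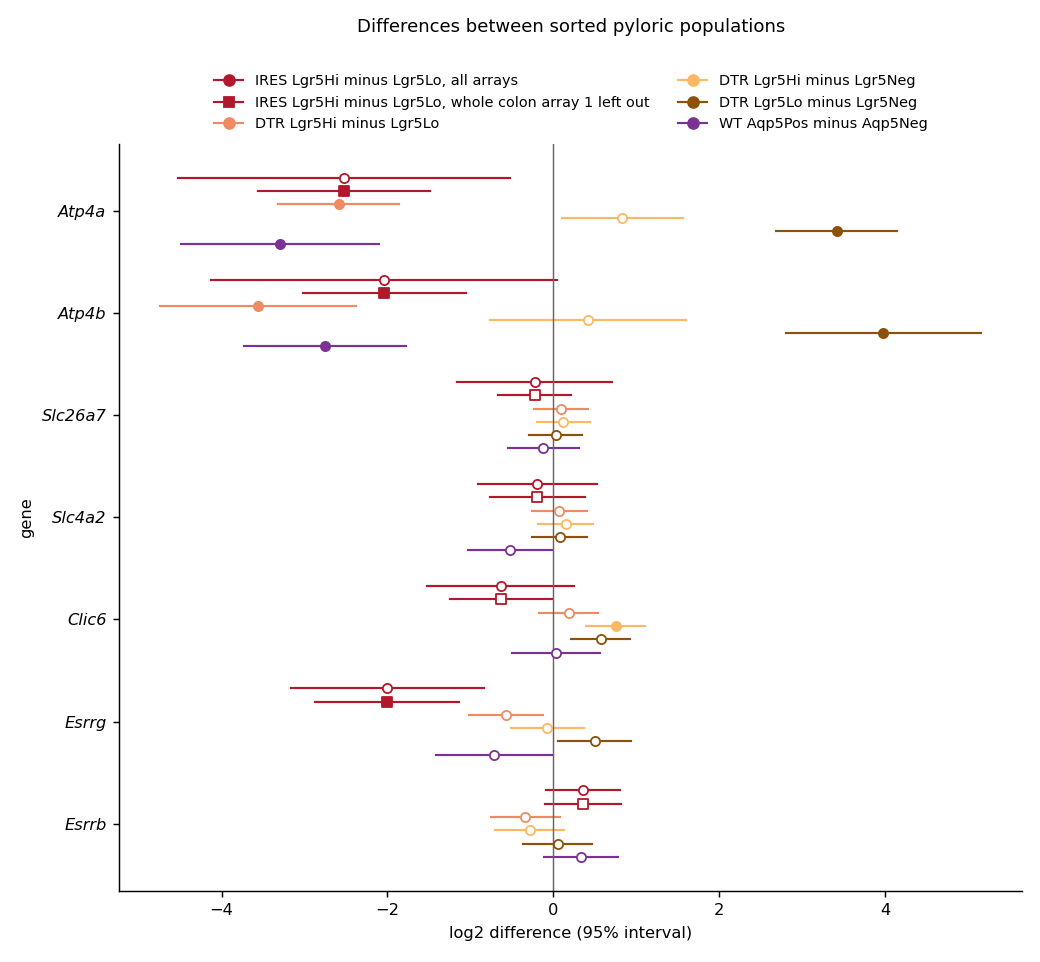
Log2 differences (x axis, points) with 95% intervals (bars) of the 7 genes (y axis) between sorted pyloric populations, filled where called at an adjusted p under 0.05 and open where not. The IRES intervals of Atp4a, Atp4b and Esrrg narrow when whole colon array 1 (square) is left out, with the same differences.

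Unsorted IRES pylorus gave 2 unlike arrays. Atp4a stood at 10.88 and 6.99 and Atp4b at 10.50 and 7.14, so the first array lay within the Lgr5Lo range and the second below every IRES Lgr5Hi array for both genes. Against whole pylorus, Lgr5Hi cells differed by -0.19 ± 1.18 for Atp4a and 0.16 ± 1.23 for Atp4b. Lgr5Lo cells differed from it by 2.33 ± 1.18 and 2.19 ± 1.23. Limma called 0 of 7 genes in each, with 1 at an unadjusted p under 0.05 in each (Esrrb for Lgr5Hi, Esrrg for Lgr5Lo), where 5.98% and 2.12% of all genes were called. An unadjusted p under 0.05 was reached by 3909 and 3360 of 22180 genes, so 1 of 7 does not stand out. Without whole colon array 1 the Lgr5Lo differences of Atp4a, Atp4b and Esrrg were called (adjusted p = 0.0369, 0.0387 and 0.0341), 3 of 7 higher against 0.649% of all genes.

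In the intestine Atp4a lay a little above the array medians and Atp4b at them, whole colon array 1 apart. In the small intestine Atp4a stood at 5.01 and 4.75 in Lgr5Hi cells and at 4.57 and 4.76 in Lgr5Lo cells, and in the colon at 4.13, 4.26 and 4.82 in Lgr5Hi cells and at 4.61, 4.69 and 4.13 in Lgr5Lo cells. Atp4b stood at 3.75 and 3.79 in small intestinal Lgr5Hi cells and at 3.58 and 4.30 in Lgr5Lo cells, and at 3.90, 4.07 and 3.70 in colonic Lgr5Hi cells and at 4.48, 4.21 and 3.98 in Lgr5Lo cells. No pyloric array of the IRES line was as low as any of these. Pyloric Lgr5Hi cells were above small intestinal Lgr5Hi cells by at least 3.86 ± 1.18 for Atp4a and 5.20 ± 1.23 for Atp4b (adjusted p = 0.0335 and 0.00613). They were above colonic Lgr5Hi cells by at least 4.34 ± 1.04 and 5.09 ± 1.09 (adjusted p = 0.0104 and 0.00393). Without whole colon array 1 the errors of these 4 differences were 0.51 to 0.61, and the largest adjusted p was 9.61e-05. Pyloric Lgr5Lo cells were above those of the small intestine by at least 6.60 ± 1.18 and 7.07 ± 1.23 and above those of the colon by at least 6.79 ± 1.04 and 6.79 ± 1.09, with adjusted p from 0.000188 to 0.000665 for these 4 differences. In all, 3 of 7 genes were called higher in Lgr5Hi pylorus than in small intestine (4.67% of all genes) and 2 of 7 than in colon (2.9%). For Lgr5Lo cells 2 of 7 were called higher against each organ (3.74% and 2.57%). Leaving out either small intestinal Lgr5Hi array left 0 genes called in that comparison, with Atp4b at adjusted p = 0.0745 and 0.0589.

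Within the intestine no difference between the gates was called. Lgr5Hi minus Lgr5Lo was 0.21 ± 1.36 for Atp4a and -0.17 ± 1.42 for Atp4b in the small intestine, and -0.08 ± 1.11 and -0.34 ± 1.16 in the colon. Limma called 0 of 7 genes in either organ, with 0 at an unadjusted p under 0.05, where 0.185% of all genes were called in the small intestine and 0% in the colon. For Atp4a in the small intestine the 95% interval ran from -2.62 to 3.05, and from -1.25 to 1.68 without whole colon array 1, where again 0 of 7 genes were called in either organ and 1 (Clic6, small intestine) had an unadjusted p under 0.05. Of 22180 genes, 1164 had such a p in the small intestine in the same fit. Whether the pyloric gap differs from the intestinal one was tested as a difference of differences, and 0 of 7 genes were called, with Esrrg at an unadjusted p under 0.05 in each. Pylorus minus small intestine was -2.74 ± 1.67 for Atp4a and pylorus minus colon was -2.45 ± 1.47 (adjusted p = 0.805 and 0.738), where 0.0316% and 0.225% of all genes were called. Without whole colon array 1 the errors for Atp4a were 0.87 and 0.76, and 0 of 7 genes were called (adjusted p = 0.279 and 0.201 for Atp4a). Of the 7, 4 against small intestine and 3 against colon had an unadjusted p under 0.05, as had 1803 and 2046 of 22180 genes. With the replicate block, which pairs the arrays in pylorus and in colon, Atp4a was called against colon (adjusted p = 0.027). With only the 14 arrays of pyloric and colonic Lgr5Hi and Lgr5Lo cells in the fit it was called as well (adjusted p = 0.044).

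Slc4a2 (probe set 17435348, chr5:24423761-24440947), the basolateral chloride and bicarbonate exchanger known as AE2, was measured at a middling level in every group. Its group means ran from 5.19 in small intestinal Lgr5Hi cells to 6.18 in whole pylorus, with whole colon at 8.07 in array 1 and 6.12 in array 2. In WT it stood at 4.85, 5.80, 4.90 and 5.40 in Aqp5Pos cells, against 5.68, 5.92, 5.98 and 5.45 in Aqp5Neg cells, and these ranges overlapped. The difference of -0.52 ± 0.23 was the largest between sorted pyloric populations for this gene and was not called (adjusted p = 0.245). The DTR gates averaged 5.92 ± 0.23, 5.85 ± 0.17 and 5.77 ± 0.12 (SD, n = 3 each) from Lgr5Hi to Lgr5Neg. For Lgr5Hi against Lgr5Lo the DTR interval ran from -0.26 to 0.41 (95%), a range that holds no difference of the size of the pump genes'.

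Slc26a7 (probe set 17423395, chr4:14502430-14621946), another anion exchanger of the parietal cell, was above its array's median in 2 of 42 arrays. These were whole colon array 1, at 6.80, and IRES pyloric Lgr5Lo array 4, at 4.10. The group means other than whole colon ran from 2.79 to 3.49. IRES pyloric Lgr5Lo cells stood at 2.79, 3.56, 3.53 and 4.10, around the Lgr5Hi values of 3.47, 3.17, 3.28 and 3.15. Slc26a7 was called in 0 of the 13 comparisons of groups, in the IRES line also without whole colon array 1, and at these levels no fold is given.

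Clic6 (probe set 17327236, chr16:92498147-92541241), a chloride intracellular channel protein, was well above the array medians in every array and differed less between the pyloric gates than the pump genes. In the DTR line it stood at 8.38, 8.29 and 8.30 in Lgr5Hi cells, at 8.22, 8.30 and 7.89 in Lgr5Lo cells and at 7.85, 7.57 and 7.29 in Lgr5Neg cells. No Lgr5Hi array overlapped with an Lgr5Neg array, and Clic6 rose by 0.75 ± 0.16 in Lgr5Hi cells, 1.69-fold (adjusted p = 0.00566). It was the 1 gene of 7 called higher in that comparison, where 8.84% of all genes were called higher, and the call was lost in 1 fit over all 42 arrays (adjusted p = 0.408). In WT it averaged 8.01 ± 0.44 in Aqp5Pos cells and 7.98 ± 0.34 in Aqp5Neg cells (SD, n = 4 each), with a 95% interval of the difference from -0.50 to 0.56.

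In the IRES line Clic6 stood at 7.70, 8.06, 7.06 and 7.77 in pyloric Lgr5Hi cells, against 8.69, 8.67, 7.34 and 8.43 in Lgr5Lo cells. These groups overlapped, and the difference of -0.63 ± 0.43 was not called (adjusted p = 0.579). In the small intestine it stood at 7.50 and 7.61 in Lgr5Hi cells, 6.10 and 7.24 in Lgr5Lo cells and 6.02 and 5.46 in crypts, and the crypt arrays were the lowest of all 42. Pyloric Lgr5Lo cells were higher than small intestinal ones by 1.61 ± 0.52 and than colonic ones by 1.14 ± 0.46, with no overlap (adjusted p = 0.0609 and 0.161). Without whole colon array 1 both were called (adjusted p = 0.00448 and 0.0278), and so the count for Lgr5Lo cells was 3 of 7 against small intestine (4.31% of all genes higher) and 4 of 7 against colon (3.05%).

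**Figure D3:**
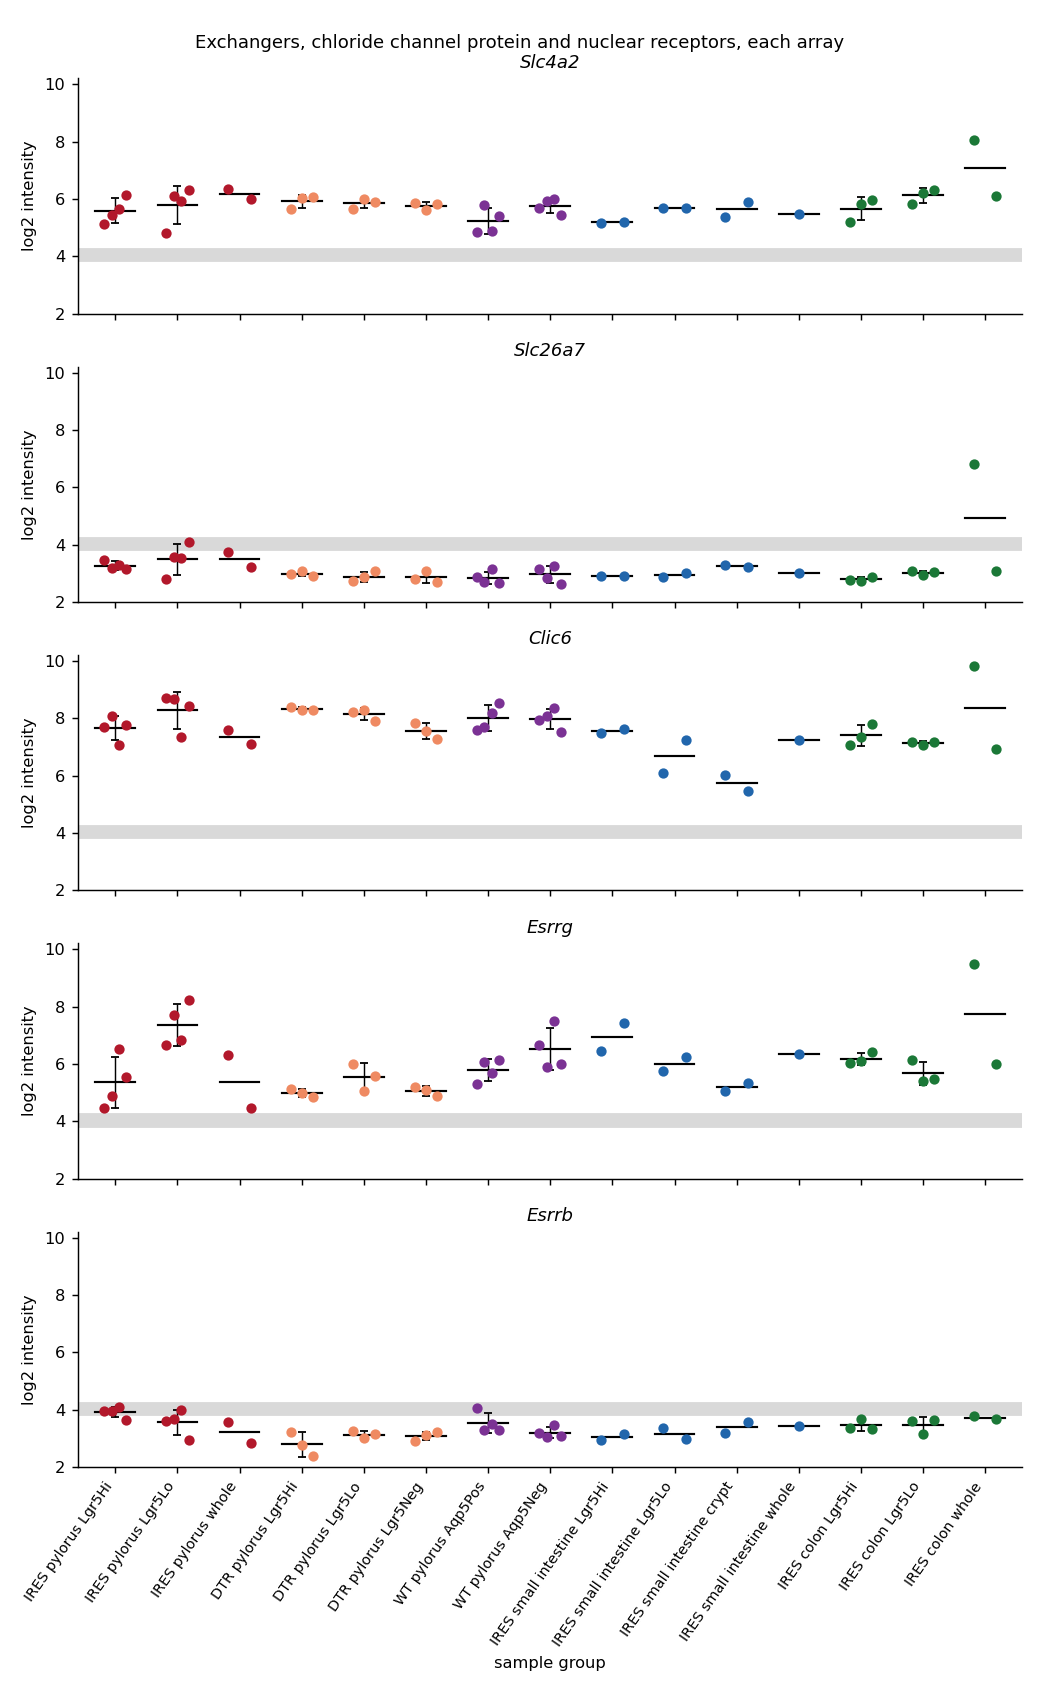
Log2 intensity (y axis) of Slc4a2, Slc26a7, Clic6, Esrrg and Esrrb in each array (points) of the 15 groups (x axis), drawn as for the pump genes. Slc26a7 and Esrrb lie at or below the grey band of array medians in nearly all arrays, except Slc26a7 at 6.80 in whole colon array 1, and whole colon array 1 is the highest point for 4 of the 5 genes.

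Esrrg (probe set 17220627, chr1:187608510-188214885), the estrogen-related receptor gamma known to be required for parietal cell differentiation in mice, separated the IRES pyloric gates but was not confined to the stomach. It stood at 4.46, 4.89, 6.53 and 5.54 in Lgr5Hi cells, against 6.66, 7.71, 6.83 and 8.24 in Lgr5Lo cells. The groups did not overlap, although Lgr5Hi array 3, also the highest for the pump genes, came just below the lowest Lgr5Lo array. Esrrg differed by -2.00 ± 0.56 (adjusted p = 0.0752), and without whole colon array 1 Esrrg fell by 2.00 ± 0.42 (adjusted p = 0.0118). In whole pylorus it stood at 6.30 and 4.46.

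In the DTR line Esrrg was lower and flatter, at 5.12, 4.99 and 4.85 in Lgr5Hi cells, 6.01, 5.07 and 5.59 in Lgr5Lo cells and 5.19, 5.11 and 4.87 in Lgr5Neg cells. Lgr5Hi minus Lgr5Lo was -0.57 ± 0.20 (adjusted p = 0.153), and it was called without Lgr5Lo array 2 (-0.81, adjusted p = 0.0404). In WT it stood at 5.32, 6.06, 5.68 and 6.14 in Aqp5Pos cells, against 6.66, 5.88, 7.50 and 6.01 in Aqp5Neg cells, with a difference of -0.71 ± 0.33 that was not called (adjusted p = 0.252). In these lines the arrays of the gates overlapped. The difference between the DTR and IRES gaps, 1.43 ± 0.74, was not called (adjusted p = 1).

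The intestine, where the pump genes were low, held Esrrg at levels like those of the stomach. It stood at 6.45 and 7.44 in small intestinal Lgr5Hi cells and at 5.75 and 6.23 in Lgr5Lo cells, and at 6.02, 6.09 and 6.40 in colonic Lgr5Hi cells and at 6.12, 5.40 and 5.48 in Lgr5Lo cells. Lgr5Hi pylorus minus small intestine was -1.59 ± 0.69 (adjusted p = 0.149), and without whole colon array 1 Esrrg was called lower in the pylorus (adjusted p = 0.0411, with 8.37% of all genes called lower). Lgr5Lo cells went the other way. They averaged 7.36 in pylorus and 5.99 in small intestine, a difference not called with or without whole colon array 1. Against colon, Lgr5Lo pylorus minus colon was 1.69 ± 0.60 (adjusted p = 0.106, and 0.0203 without whole colon array 1). The Lgr5Hi minus Lgr5Lo gap of the pylorus differed from that of the small intestine by -2.96 ± 0.97 and from that of the colon by -2.51 ± 0.85, and neither was called (adjusted p = 0.352 and 0.319).

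Esrrb (probe set 17277504, chr12:86361117-86521628), the beta member of the same receptor family, was above its array's median in 1 of 42 arrays. Its group means ran from 2.79 in DTR Lgr5Hi cells to 3.91 in IRES pyloric Lgr5Hi cells, which stood at 3.95, 3.95, 4.09 and 3.65. These exceeded the small intestinal Lgr5Hi arrays at 2.93 and 3.16 by 0.87 ± 0.27, the third gene called in that comparison (adjusted p = 0.0328). All of these values are near or below the median of their array, with Lgr5Hi array 2 just above it. The call was lost when any of IRES pyloric Lgr5Hi arrays 1 to 3 or either small intestinal array was left out, at adjusted p from 0.0576 to 0.28.

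Across arrays the pump subunits rose and fell as a pair, while Esrrg ran with them more closely within groups than across group means. Over the 15 group means Atp4a and Atp4b had a Pearson r of 0.99, and over the deviations of 39 arrays from the mean of their group, whole colon left out, r was 0.91. The array with the most Atp4a also had the most Atp4b in 10 of the 14 groups with 2 or more arrays. Between Atp4a and Esrrg r was 0.37 over group means and 0.68 over deviations. With Atp4a, the r over deviations was 0.49 for Slc4a2, 0.21 for Slc26a7, 0.12 for Esrrb and 0.10 for Clic6. These r are descriptions, since arrays share depth, labelling and the makeup of the sort.

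**Figure D4:**
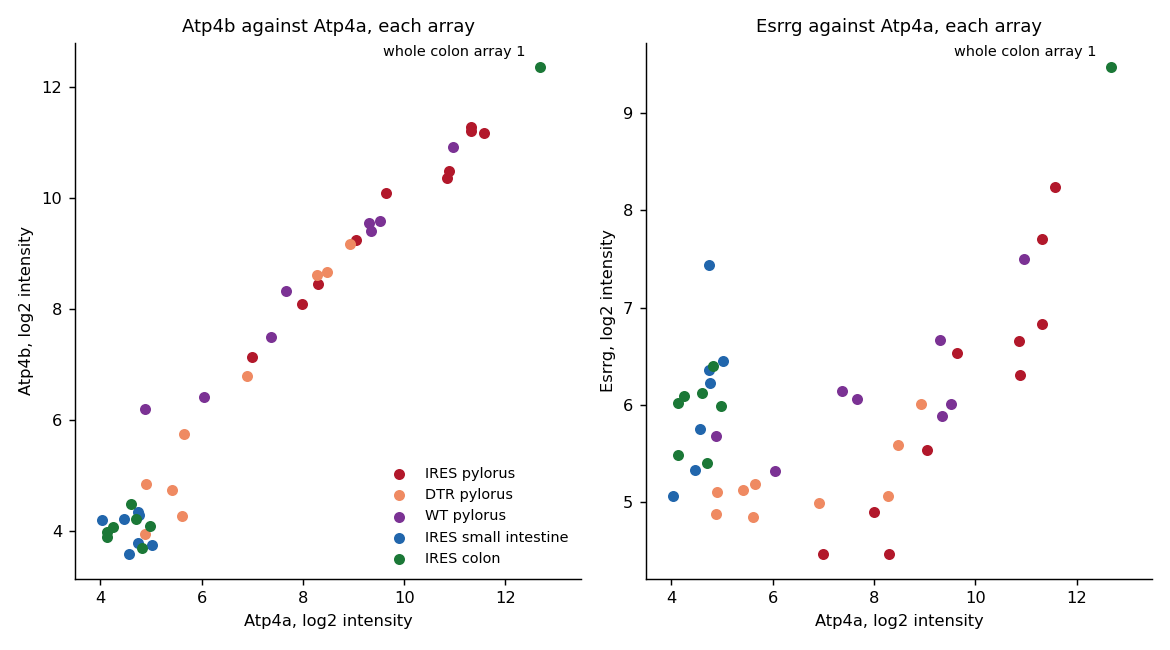
Log2 intensity of Atp4b (left, y axis) and Esrrg (right, y axis) against Atp4a (x axis) in each of 42 arrays, coloured by line and organ. Atp4b follows Atp4a from the intestine to IRES pylorus, while small intestine and colon have Esrrg between 5.06 and 7.44 at low Atp4a levels, and whole colon array 1 is the highest point in both panels.

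Of the transport partners of acid secretion, 16 of 18 listed genes were measured, and they moved in both directions between the gates. In DTR Lgr5Hi against Lgr5Lo cells 3 rose and 2 fell, with a list median of -0.15 against 0.01 over all genes, of which 2.02% rose and 2.94% fell. Car12, a membrane carbonic anhydrase, rose by 1.21 ± 0.16, Kcnq1, the potassium channel that returns potassium to the lumen, by 0.94 ± 0.15 and Slc12a2, a basolateral chloride importer, by 0.59 ± 0.13. Car2, the cytoplasmic carbonic anhydrase that supplies protons, fell by 0.73 ± 0.14 and Slc4a4, a bicarbonate cotransporter, fell by 0.51 ± 0.13. Against Lgr5Neg cells 6 rose and 3 fell in Lgr5Hi cells (list median 0.17, all genes 0.02, of which 8.84% rose and 9.48% fell), and 4 rose and 0 fell in Lgr5Lo cells (list median 0.29, all genes 0.00, of which 1.57% rose and 0.631% fell). The 4 were Slc12a2 (1.51 ± 0.13), Car12 (1.53 ± 0.16), Kcnq1 (1.31 ± 0.15) and Slc26a9, an apical chloride transporter (1.13 ± 0.15). Thus Kcnq1 and Car12 were highest in the brightest gate, where the pump genes were low.

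In WT 3 partners rose and 4 fell in Aqp5Pos cells (list median -0.28, all genes 0.06, of which 0.546% rose and 2.25% fell). The potassium channel genes Kcnj15 and Kcnj16 fell by 1.55 ± 0.24 and 1.55 ± 0.30, together with Slc4a4 and Car2, while Slc12a2 (1.07 ± 0.16), Slc26a9 (0.98 ± 0.20) and Cftr, a chloride channel (0.97 ± 0.23), rose. In the IRES pylorus 2 rose in Lgr5Hi cells, Kcnq1 (1.48 ± 0.26) and Car12 (1.93 ± 0.40), and 0 fell (list median -0.09, all genes -0.04, of which 1.49% were called). Without whole colon array 1, Kcnj16 and Kcne2, the beta subunit that keeps Kcnq1 open, also fell, by 1.39 and 1.67, where 1.42% of all genes fell. Kcne2 averaged 4.71 in Lgr5Hi cells and 6.38 in Lgr5Lo cells (arrays 4.43 to 5.19 and 5.79 to 6.95). Kcnj15 differed by -1.13 ± 0.30 there and was not called (adjusted p = 0.0505). In WT, Kcne2 differed by -0.92 ± 0.29 and was not called (adjusted p = 0.116). In DTR Lgr5Hi against Lgr5Lo cells, where the pump genes fell, none of these 3 was called. Kcne2 averaged 4.19 in Lgr5Hi, 4.59 in Lgr5Lo and 4.24 in Lgr5Neg cells. Its Lgr5Lo arrays, at 4.53 to 4.64, lay above all other DTR arrays, as for the pump genes. Kcnj15 averaged 4.34, 4.52 and 4.12 in the same gates, with overlapping Lgr5Hi and Lgr5Lo arrays. Kcnj16 averaged 3.86, 4.05 and 3.92, near the array medians. Kcnq1 was called higher in Lgr5Hi than in Lgr5Lo cells in both the IRES and the DTR line.

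Between organs the partners went both ways. Of the 16, 4 were higher and 3 lower in Lgr5Hi pylorus than in small intestine (4.67% of all genes higher, 7.74% lower). Against colon 3 were higher and 3 lower (2.9% higher, 4.22% lower). In Lgr5Lo cells 4 were higher and 1 lower than in small intestine (3.74% higher, 4.43% lower), and 2 higher and 2 lower than in colon (2.57% higher, 3.78% lower). Without whole colon array 1 these counts moved. In Lgr5Hi cells 5 were higher and 4 lower than in small intestine, and 4 and 4 than in colon. In Lgr5Lo cells they were 6 and 2, and 5 and 3. Of 22180 genes, 1136, 758, 957 and 677 were higher in these 4 fits, in the same order, and 1857, 1083, 1124 and 998 lower. Slc9a4, a sodium and proton exchanger of gastric epithelium, was higher in the pylorus by 5.50 to 6.02 in each of the 4 comparisons, and Slc26a9 by 3.93 to 4.50. Between the gates Slc9a4 was called once, higher by 0.57 ± 0.14 in DTR Lgr5Hi than in Lgr5Neg cells, and its pyloric group means ran from 8.74 in WT Aqp5Pos cells to 9.56 in whole pylorus. Car2 was higher than in small intestine, by 5.74 ± 0.28 in Lgr5Hi and 5.31 ± 0.28 in Lgr5Lo cells. Aqp4, a water channel known from parietal cells, went the other way. It averaged 3.08 to 3.88 over all 8 pyloric groups, below the array medians in most arrays, and 7.58 in colonic Lgr5Hi cells.

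**Figure D5:**
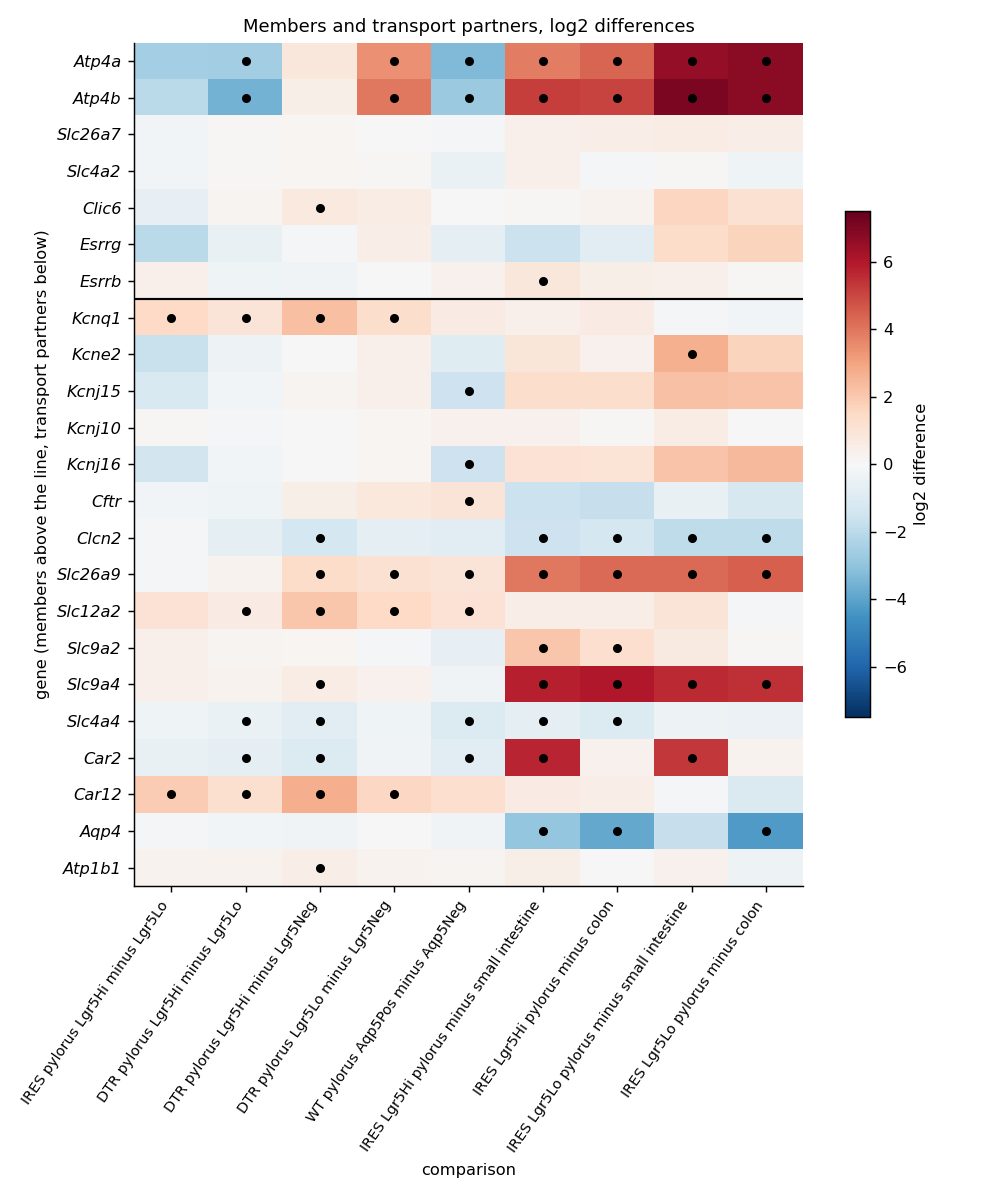
Log2 differences (colour) of the 7 genes (above the line) and 16 transport partners (below it) in 9 comparisons (x axis), with a dot where the gene was called. Slc9a4 and Slc26a9 are dotted in all 4 pylorus comparisons on the right, and Kcnq1 and Car12 have the opposite colour to Atp4a in the IRES and DTR comparisons of Lgr5Hi with Lgr5Lo cells.

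The remaining acid secretion lists are read against the shares of all genes called in the same comparisons. These shares were 2.02% rising and 2.94% falling in DTR Lgr5Hi against Lgr5Lo cells, and 0.546% and 2.25% in WT Aqp5Pos cells. In DTR Lgr5Lo against Lgr5Neg cells they were 1.57% and 0.631%. Of 15 genes of secretory membrane traffic, 1 rose in DTR Lgr5Hi against Lgr5Lo cells (Vamp2, 0.64 ± 0.15) and 2 fell in WT Aqp5Pos cells. These were Ezr, the ezrin gene, which links membrane to actin in the parietal cell (-1.29 ± 0.20), and Rab11a, a recycling endosome GTPase (-0.75 ± 0.18). In DTR Lgr5Hi against Lgr5Neg cells 3 of the 15 rose and 5 fell, Vamp2 rising by 1.22 ± 0.15 and Ezr falling by 0.90 ± 0.17, where 8.84% of all genes rose and 9.48% fell. In IRES Lgr5Hi cells 7 of the 15 fell and 0 rose relative to whole pylorus, where 4.32% of all genes fell. Of 7 receptor genes, 0 were called in WT or in Lgr5Hi against Lgr5Lo cells of either line, with at most 1 at an unadjusted p under 0.05, and Hrh2, the histamine receptor that starts acid secretion, averaged 3.28 to 4.47 in the pyloric groups, near the array medians. Chrm3, the muscarinic receptor, rose by 1.67 ± 0.19 in Lgr5Hi and 1.04 ± 0.19 in Lgr5Lo cells of the DTR line, relative to Lgr5Neg cells. Of 13 genes of estrogen-related receptor partners and energy metabolism, 1 rose and 2 fell in DTR Lgr5Hi against Lgr5Lo cells. The coactivator Ppargc1a rose by 0.86 ± 0.16, and its relative Ppargc1b and the citrate cycle enzyme gene Idh3a fell by 0.72 ± 0.18 and 0.77 ± 0.14. Against Lgr5Neg cells 1 rose and 5 fell in Lgr5Hi cells, and in WT 1 of the 13 fell, the fatty acid dehydrogenase gene Acadm (-0.99 ± 0.24). Of 5 genes for factors that parietal cells release, Shh, the hedgehog ligand, fell by 1.88 ± 0.24 in WT Aqp5Pos cells and by 1.60 ± 0.18 and 1.25 ± 0.18 in DTR Lgr5Hi and Lgr5Lo cells relative to Lgr5Neg cells.

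Markers of other stomach cells moved with the same gates, and their part in the pump results was not tested. Over all genes, 2.02% rose and 2.94% fell in DTR Lgr5Hi against Lgr5Lo cells, and 0.546% rose and 2.25% fell in WT Aqp5Pos cells. Against DTR Lgr5Neg cells 8.84% rose and 9.48% fell in Lgr5Hi cells, and 1.57% rose and 0.631% fell in Lgr5Lo cells. In IRES Lgr5Hi against Lgr5Lo cells 1.49% were called, and without whole colon array 1, 202 of 22180 genes rose and 316 fell. The 5 pit cell markers all fell in DTR Lgr5Hi against Lgr5Lo cells, with list means per array of 7.34 to 8.21 in Lgr5Hi and 10.81 to 11.24 in Lgr5Lo cells. They all fell in WT Aqp5Pos cells too, at 10.02 to 11.00 in Aqp5Pos and 12.00 to 12.11 in Aqp5Neg cells. In the DTR line they were highest in Lgr5Neg cells, 11.74 to 12.00, where Atp4a and Atp4b were low. The 5 tuft cell markers all fell in WT Aqp5Pos cells (list means 3.88 to 4.50 in Aqp5Pos and 6.03 to 6.41 in Aqp5Neg cells), but 4 of 5 rose in DTR Lgr5Hi against Lgr5Lo cells. In IRES Lgr5Hi against Lgr5Lo cells 0 pit and 1 tuft marker (Gnat3, lower) were called. Of 6 chief cell markers, 3 rose in DTR Lgr5Hi against Lgr5Lo cells and 3 in Lgr5Lo against Lgr5Neg cells. In WT Aqp5Pos cells 1 rose, and 0 were called in IRES Lgr5Hi against Lgr5Lo cells (1 higher without whole colon array 1). Chia1 had the lowest difference of this list between Lgr5Hi and Lgr5Lo cells of both lines and in WT, and was called in none. In IRES pylorus it averaged 7.36 in Lgr5Hi and 10.41 in Lgr5Lo cells. Of 5 gland mucous cell markers, 3 rose in DTR Lgr5Hi against Lgr5Lo cells and 4 in DTR Lgr5Hi and in Lgr5Lo against Lgr5Neg cells. In WT Aqp5Pos cells 4 rose, and in IRES Lgr5Hi against Lgr5Lo cells 2 rose (3 without whole colon array 1). The list means of these 5 per array were 10.94 to 11.07 in DTR Lgr5Hi, 10.29 to 10.65 in Lgr5Lo and 8.68 to 9.11 in Lgr5Neg cells. In WT they were 10.28 to 10.45 in Aqp5Pos and 9.10 to 9.52 in Aqp5Neg cells. Of 7 endocrine markers, Ghrl, the ghrelin gene, fell in IRES Lgr5Hi against Lgr5Lo cells (-3.20 ± 0.77) and in WT Aqp5Pos cells (-2.12 ± 0.49), and 2 rose and 1 fell in DTR Lgr5Hi against Lgr5Neg cells. Of 5 immune markers, 1 (Cd68, a macrophage marker) fell in DTR Lgr5Hi against Lgr5Lo cells, and 2 fell in Lgr5Hi against Lgr5Neg cells, with list means per array of 3.33 to 4.15 in the sorted pyloric groups. Stromal, endothelial and squamous markers had 0 genes called in the DTR and WT comparisons, with at most 1 per list at an unadjusted p under 0.05 by limma, and their list means lay between 3.17 and 4.56 in the arrays of these groups.

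Over the 15 group means, the genes most like Atp4a, the members left out, were Tnni3, the cardiac troponin I gene (r = 0.95), Npw, neuropeptide W (0.92), Chia1, an acidic chitinase (0.91), and Kcnj15 (0.90). Pik3c2g, Aass, Rnf208, Psca, Dcaf8l and Mogat1 followed, at r from 0.85 to 0.90. Of these genes, Chia1 is on the chief cell list above and Psca on the pit cell list. These 10 came from 11575 genes whose group means spanned at least 1 log2 unit, and 7 of the 10 remained without whole colon array 1. The 3 that entered instead were Chil4, Kcnj16 and Kcne2. Tnni3 averaged 6.16 in Lgr5Hi and 8.05 in Lgr5Lo cells of IRES pylorus, and 5.79 in WT Aqp5Pos and 7.28 in Aqp5Neg cells. In the DTR line it ran with Atp4a, at 5.21 in Lgr5Hi, 5.81 in Lgr5Lo and 4.74 in Lgr5Neg cells. Not all 10 genes did so. Chia1, Kcnj15 and Pik3c2g were also highest in DTR Lgr5Lo cells, though each differed little from Lgr5Hi cells, with overlapping arrays. Psca, Mogat1 and Npw were highest in DTR Lgr5Neg cells, at 10.00, 6.41 and 5.43, where Atp4a was lowest, though Npw averaged 5.40 in Lgr5Lo cells. Aass, Rnf208 and Dcaf8l were highest in DTR Lgr5Hi cells. Over the DTR gates Aass averaged 3.40 to 3.81 and Dcaf8l 2.81 to 2.89, at or below the array medians, so their order there may be background. In the intestinal groups other than whole colon Tnni3 averaged 4.55 to 4.96, and whole colon array 1 held the highest Tnni3 of all arrays, 9.92. Tnni3 was also the gene most like Atp4b (r = 0.92). The genes most like Slc26a7 and Slc4a2 were wholly different without whole colon array 1, with 0 of 3 shared for each, so their likeness is not listed.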

How the data were processed

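The deposited values are log2 intensities of 41345 probe sets on 42 Affymetrix arrays, 1 per sample, deposited by the authors in 1 table without detection calls. The submitters' processing notes name RMA, oligo, limma 3.26.8, R 3.2.3 and Partek, without order or role. Of the probe sets, 23521 had 1 gene symbol, 1814 several and 16010 none. Each of 22180 genes was taken from its probe set of highest mean. Groups came from sample titles.

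Differences were fitted with limma 3.58.1 in R 4.3.3, with 1 mean per group within each line (all 42 arrays for the comparison of lines), eBayes moderation and p-values adjusted by Benjamini-Hochberg across the 22180 genes, and called at an adjusted p under 0.05. The code was tested on simulated data. Same-numbered IRES Lgr5Hi and Lgr5Lo arrays of pylorus deviated together (r from 0.104 to 0.296 over 4 pairs), as did those of colon (0.136 to 0.242 over 3 pairs), so the replicate number was taken to pair them. The numbers were not taken to pair arrays in the other comparisons.

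Named genes were the 7 members, Lgr5, Aqp5, up to 4 genes per list with the smallest p, and the genes most like each member in group means. Other genes named for 1 value were chosen after their values were seen. The members and lists were chosen with earlier results of these data known. Alternatives were 1 fit over all arrays, only the groups compared, trend and robust eBayes, quantile and median scaling, another probe set rule, a filter on low values, the replicate block and each array left out. Promoters and coordinates are RefSeq's, on GRCm38.p6.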

Additional observations from a re-analysis of the deposited data

Results flagged for a closer look

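In 28 gene-by-group sets of 4 arrays, 3 held an array far from the others, where chance gives about 1 in 20. In WT Aqp5Neg cells the third array stood at 10.97 for Atp4a and at 10.92 for Atp4b, above the other 3 arrays, which lay at 9.30 to 9.53 and 9.40 to 9.59. In IRES pyloric Lgr5Lo cells the first array stood at 10.36 for Atp4b, below the other 3 at 11.18 to 11.29.

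Whole colon array 1, which enters no comparison of the report as a group, stood more than 1 log2 unit above every sorted colon array for 6 genes. It held Atp4a at 12.69 (highest sorted colon array 4.82), Atp4b at 12.37 (4.48), Slc26a7 at 6.80 (3.08), Slc4a2 at 8.07 (6.32), Clic6 at 9.82 (7.80) and Esrrg at 9.47 (6.40). Esrrb stood at 3.77, just above the highest sorted colon array at 3.66.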

How the results depend on the processing

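Of 270 counts of the 7 genes called under the alternatives, 247 were within 1.5 times the reported count, and no called gene turned its direction. In 1 fit over all 42 arrays the count was 1 in place of 0 for IRES pyloric Lgr5Hi against Lgr5Lo and for Lgr5Lo against whole, 0 in place of 2 for DTR Lgr5Hi against Lgr5Lo and Lgr5Lo against Lgr5Neg, 0 in place of 1 for DTR Lgr5Hi against Lgr5Neg, and 1 in place of 2 for WT. With only the groups compared it was 2 for IRES pyloric Lgr5Hi against Lgr5Lo and 1 for the pylorus minus colon difference of differences, in place of 0. With the replicate block it was 3 for IRES pyloric Lgr5Hi against Lgr5Lo, 2 for Lgr5Lo against whole, 1 for pylorus minus colon, and 4 in place of 2 for Lgr5Lo pylorus against small intestine. The last gained Clic6 (2.01, adjusted p = 2.17e-05) and Esrrg (1.19, adjusted p = 0.034). The block fits of Lgr5Lo pylorus against whole and against small intestine held only the same-numbered arrays, 2 per group. The numbers were not taken to pair arrays there, so these p-values carry little weight. With the unsorted arrays left out, an alternative chosen after seeing the data, the counts were 3 for IRES pyloric Lgr5Hi against Lgr5Lo, 1 for pylorus minus colon and 4 in place of 2 for Lgr5Lo pylorus against colon. Leaving out 1 array gave 0 to 3 for IRES pyloric Lgr5Hi against Lgr5Lo (3 without whole colon array 1, 1 without Lgr5Hi array 3) and 0 to 3 for Lgr5Lo against whole (3 without whole colon array 1). It gave 1 to 2 for DTR Lgr5Hi against Lgr5Neg (2 without Lgr5Hi array 1), 0 to 4 for Lgr5Hi pylorus against small intestine (0 without either small intestinal array, 1 without pyloric array 3) and 2 to 4 for Lgr5Lo pylorus against colon (4 without whole colon array 1). The filter on low values kept 13750 genes and left no value for Esrrb. Scaling moved the median over all genes by at most 0.16. The absence of detection calls limits what can be said of Slc26a7 and Esrrb, which exceeded the array's median in 2 and 1 of 42 arrays.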
